A study of Mus musculus with 4 samples.

Results

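The DNA replication genes described here are 37 genes for the machinery that copies the genome. They were chosen by symbol from a list that covers the MCM2-7 helicase, the factors that activate it, origin licensing, the polymerases and primase, the sliding clamp and its loader, single-strand binding, Okazaki fragment maturation, nucleotide supply and the CAF-1 histone chaperone. All 37 symbols were found among the 22222 in the deposited table, and all 37 were among the 15419 genes with a level of 1 or more in at least 2 libraries, the genes that were tested. The data were 4 RNA sequencing libraries from mouse keratoacanthomas, skin tumours that can regress on their own, raised by 20 weeks of the carcinogen DMBA. Tumours were taken from 2 mice still on DMBA (0 weeks after it, "on DMBA") and from 2 other mice kept without DMBA for 1 week. All 4 mice had therefore had the same 20 weeks of carcinogen, and there was no untreated skin or tumour. RNA came from cells that had been sorted as Tomato+ and P-cadherin+ and are labelled epithelial, was depleted of ribosomal RNA and was made into libraries that mark the strand. Neither the driver of the Tomato reporter nor the strain or age of the mice is given in the sources used here.

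Replication starts when origins are licensed in G1: the origin recognition complex recruits CDC6 and CDT1, which load the MCM2-7 ring onto DNA. In S phase CDC45 and the GINS complex bind the ring and make it an active helicase, and primase, the replicative polymerases, the clamp PCNA and the ligation enzymes then copy both strands. In cycling cells many of these genes are transcribed under E2F control from late G1, and in skin their transcripts are typical of dividing basal keratinocytes.

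The libraries did not carry keratinocyte transcripts to the same degree. Levels are in scaled CPM, read numbers divided by a scaled size of the library, and are always given in the order on-DMBA replicate 1, on-DMBA replicate 2, 1-week replicate 1, 1-week replicate 2. The libraries held 9678682, 5635945, 5551937 and 7662159 reads. The summed level of 12 basal keratinocyte markers was 49959, 604, 5849 and 4244, and each of the 12 was highest in on-DMBA replicate 1 and lowest in on-DMBA replicate 2. Krt14 (26654, 202, 2644, 1944) and Krt5 (11731, 55.3, 539, 613) had the highest levels of them, and Cdh3, which encodes P-cadherin, was at 325, 3.23, 42.8 and 30.4. The 8 suprabasal markers, led by Krt10 (2026, 3.23, 3.59, 5.42) and Krt1 (878, 4.13, 9.22, 5.71), summed to 3562, 14.7, 47.2 and 37.2. The 10 fibroblast markers ran the other way, with sums of 408, 46028, 53091 and 55863, led by Col3a1 (68.5, 20658, 20761, 27662) and Col1a2 (38.5, 10606, 14287, 12903). So did the 10 myeloid markers (14.6, 14933, 6130 and 10986), led by Lyz2 (1.19, 8839, 3112, 6663) and Csf1r (1.31, 1707, 696, 840). All 10 genes of both lists were lowest in on-DMBA replicate 1, with Fcer1g at 0 reads there and the leukocyte gene Ptprc at 2.49 against 393 to 850.2 elsewhere. The 8 endothelial and mural markers, led by Rgs5 (0.356, 36.6, 150.04, 461) and Pecam1 (2.61, 47.2, 209, 402), summed to 62.5, 253, 751 and 1724. The 9 measured lymphoid markers were low throughout (3.09, 33.2, 60.0 and 77.3), led by Cd4 (0.475, 27.3, 52.4, 59.2) and Cd3g (0.237, 0.538, 1.56, 8.84). Against the epithelial label, the fibroblast sum thus exceeded the basal keratinocyte sum in on-DMBA replicate 2 and in both 1-week libraries, and the keratinocyte markers were lowest in on-DMBA replicate 2. In such bulk libraries fewer replicating cells and less of each transcript per cell cannot be told apart.

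Every one of the 37 replication genes was highest in on-DMBA replicate 1, a library that held the highest level of 41.7% of all genes tested. The lowest level was in on-DMBA replicate 2 for 23 members and in 1-week replicate 1 for 14, where the shares over all genes were 23.2% and 29.0%. The summed level of the members was 2979, 732, 824 and 1296. The on-DMBA replicates therefore lay at the top and the bottom of the series, with both 1-week libraries between them. This order is that of the basal keratinocyte markers for the highest and the lowest library, while the 1-week libraries were in the opposite order in the 2 sums. Among the other 3 libraries the members' sums were in the order of the fibroblast, lymphoid, and endothelial and mural marker sums. The part of cell composition in the levels of the replication genes was not tested.

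**Figure D1:**
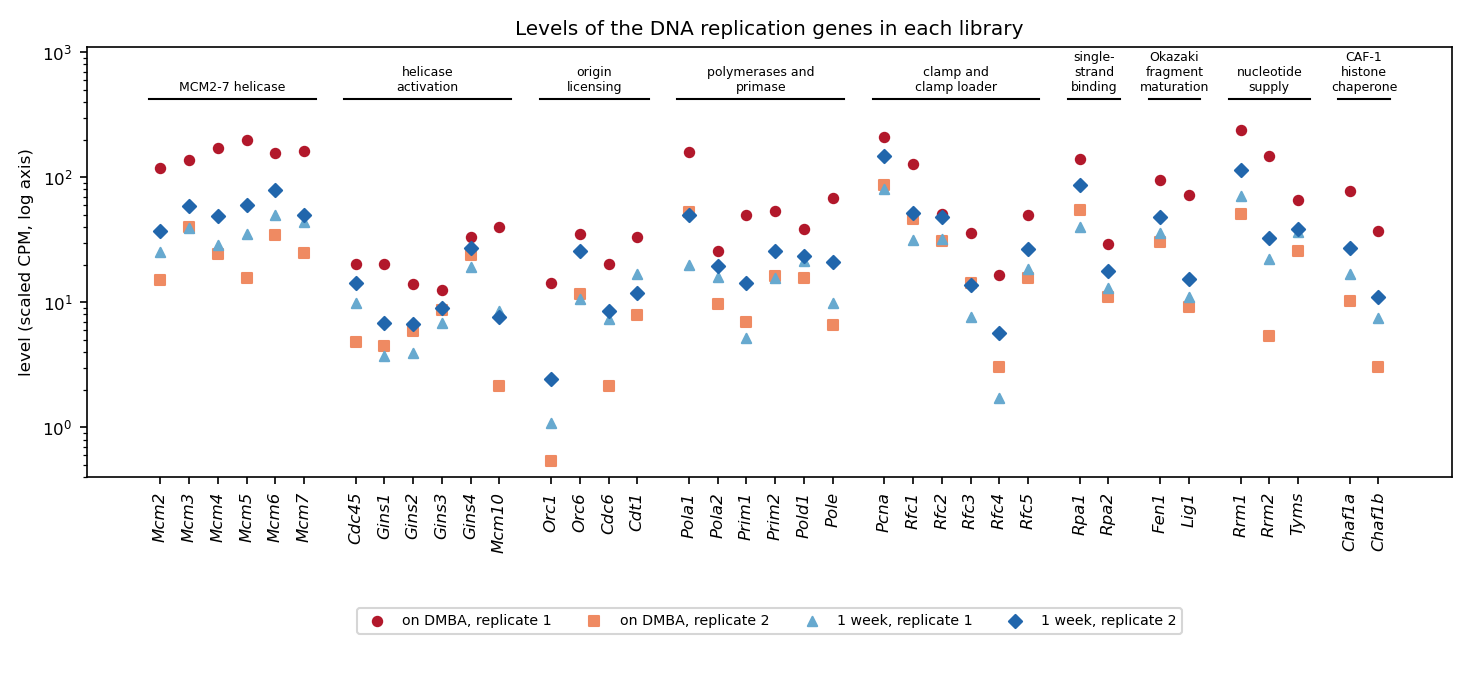
Level in scaled CPM (log axis) of each of the 37 DNA replication genes in the 4 libraries, grouped by role; each point is 1 library. The point for on-DMBA replicate 1 is the highest for all 37 genes, and the lowest point is on-DMBA replicate 2 for 23 genes and 1-week replicate 1 for 14.

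Since E2F factors are the textbook regulators of these genes, the bases around their start sites were searched for E2F-type letters. RefSeq promoter windows of 300 bases (250 before the start site and 50 from it on, build GRCm38.p6) were found for 30 of the 37 members, 34 windows in all. The letters searched were TTTCCCGC, TTTCGCGC, TTTGCCGC and TTTGGCGC on both strands, and matches on opposite strands can overlap. They occurred in 12 of the 34 member windows (35.3%), of Cdc6, Cdt1, Gins3, Lig1, Mcm3, Mcm5, Mcm6, Mcm7, Orc1, Pola1, Pold1 and Rfc3. Of all 32851 windows 2.26% held such letters, and of the 13762 windows of genes tested here 3.58% did. The letters CCAAT were in 61.8% of member windows against 37.4% of all windows (37.1% for the genes tested), and GGGCGG, the GC box, in 70.6% against 35.7% (59.3% for the genes tested). TTTGAA, the letters of the CHR element known from mitotic genes, was in 11.8% of member windows, 17.9% of all windows and 12.3% of those of the genes tested, and TATAAA in 5.88%, 13.6% and 7.96%. A match describes the letters in the window and is not a binding site.

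The following stretches, 5′ to 3′ on the strand of the gene, are from members with E2F-type letters. Their genes span the replicate difference among those members, from 26.7-fold (Orc1) to 1.46-fold (Gins3). Pola1 and Rfc3 are shown as the 2 members whose groups did not overlap, both lower at 1 week, as were 9.14% of all genes. Capitals mark the E2F-type letters, and the Mcm5 capitals are 2 overlapping matches, 1 on each strand. Stretches are 70 bases, or 30 where a longer one would reach an annotated transcript. The 30-base stretches may themselves touch a transcript.
Orc1 (chr4:108579416-108579445, plus strand): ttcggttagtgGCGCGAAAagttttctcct
Mcm5 (chr8:75109329-75109398, plus strand): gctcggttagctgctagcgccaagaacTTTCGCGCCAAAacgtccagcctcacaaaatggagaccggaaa
Mcm6 (chr1:128359714-128359783, minus strand): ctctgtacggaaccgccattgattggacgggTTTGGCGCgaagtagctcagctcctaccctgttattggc
Pola1 (chrX:93632275-93632304, minus strand): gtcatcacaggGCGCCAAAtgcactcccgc
Rfc3 (chr5:151651209-151651238, minus strand): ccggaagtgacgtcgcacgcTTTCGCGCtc
Gins3 (chr8:95633507-95633536, plus strand): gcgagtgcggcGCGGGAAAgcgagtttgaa
Counted from the start site as position 0, the first base of the upstream match nearest the start was at -27 in Orc1, -149 in Mcm5, -47 in Mcm6, -138 in Pola1, -10 in Rfc3 and -41 in Gins3. Rfc3 had a further match that begins at the start site and is not shown. The ratio of on-DMBA replicate 1 to replicate 2 had a median of 4.35 over the 12 members with such letters (1.46 to 26.7) and of 3.67 over the 18 with a window and no match (2.44 to 27.6). Over the 7 members without a window the median was 3.33 (1.39 to 10.2). The ranges overlapped, and Rrm2, with the largest ratio of all, had no match in its window. The search covered only exact letters in these windows, so a lack of matches does not mean a lack of E2F control. Whether the letters relate to the replicate difference was not tested.

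Origin licensing genes differed widely in how unequal they were between the on-DMBA mice, from 26.7-fold for Orc1 to 3.0-fold for Orc6. Orc1, the ATPase subunit of the origin recognition complex, was at 14.4, 0.538, 1.09 and 2.42, or 121, 3, 7 and 17 reads. It was therefore well measured in a single library and at the floor of 3 reads in another, and the ratio of 26.7 between the on-DMBA replicates had an exact 95% interval, for counting error only, of 8.92 to 131. Cdc6, the loading ATPase, was at 20.3, 2.15, 7.35 and 8.56. Cdt1, its partner in loading MCM2-7, was at 33.4, 7.90, 16.7 and 11.8 and was one of the members that were not higher in 1-week replicate 2 than in replicate 1. Orc6, the smallest subunit of the origin recognition complex, was at 35.0, 11.7, 10.6 and 25.5, so that its 1-week replicates differed by 2.40-fold. In all 4 genes the on-DMBA values enclosed at least 1 of the 1-week values. The log2 difference, 1 week minus on DMBA on the log2(scaled CPM + 0.5) scale, was -0.86 (SE 1.40) for Orc1 and -0.29 (SE 0.81) for Orc6, and neither passed limma's test (adjusted p = 0.9997 for each).

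The 6 subunits of the MCM2-7 helicase, the ring that unwinds DNA at the fork, summed to 942, 155, 223 and 335. Mcm5 was at 198, 15.6, 35.5 and 59.9, Mcm4 at 173, 24.2, 28.9 and 48.9, and Mcm2 at 118, 15.1, 25.5 and 37.4. Mcm7 was at 161, 24.9, 43.8 and 50.1. In these 4 subunits both 1-week libraries lay between the on-DMBA replicates, and the same held for Mcm6 (156, 34.8, 49.7 and 79.4). Mcm3 differed in that its lowest value, 39.2 in 1-week replicate 1, lay next to 40.0 in on-DMBA replicate 2, with 137 and 58.9 in the other libraries. The on-DMBA replicates differed by 3.43-fold for Mcm3 (95% counting interval 2.97 to 3.97) and by 12.7-fold for Mcm5 (10.2 to 15.9), so subunits of the same ring differed in that ratio beyond counting error. The log2 difference was -0.23 (SE 0.84) for Mcm6 and -0.62 (SE 0.74) for Mcm3, and neither passed limma's test (adjusted p = 0.9997 for each).

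Per kb of exon, the MCM2-7 subunits stood within 2.92-fold of each other in on-DMBA replicate 1 and within 2.91-fold and 3.17-fold at 1 week. In on-DMBA replicate 2 the span was 4.92-fold. Mcm2 was the lowest subunit per kb in all 4 libraries, at 17.0, 2.17, 3.66 and 5.37. The highest was Mcm5 in on-DMBA replicate 1 (49.5), Mcm3 in on-DMBA replicate 2 (10.7) and Mcm6 at 1 week (10.7 and 17.0). Exon lengths were taken from GENCODE M21, a later annotation than the one counted, and they include exons of every transcript. They ran from 1349 to 11160 bases over the members, and which transcripts were present was not determined. Ranks and spans per kb between genes therefore depend on the annotated lengths. For 12 of the 37 members some exon bases lie under a gene on the opposite strand, and the sources used here do not say whether reads were counted by strand. The overlap was 15.1% of the length or less except in Fen1, Gins2 and Chaf1a.

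Factors that turn the loaded ring into an active helicase ranged widely in the ratio between the on-DMBA replicates, from 18.7 for Mcm10 to 1.39 for Gins4. Mcm10, which stabilises the activated helicase, was at 40.3, 2.15, 8.60 and 7.70, an 18.7-fold difference between the on-DMBA replicates (95% counting interval 10.6 to 36.5). Cdc45, a subunit of the active helicase, was at 20.2, 4.85, 9.85 and 14.3, and Gins1 was at 20.2, 4.49, 3.75 and 6.85. The other GINS subunits varied less: Gins2 was at 13.9, 5.92, 3.91 and 6.70, and Gins3 at 12.6, 8.61, 6.88 and 8.99. Gins4 was at 33.4, 24.0, 19.2 and 27.4, the smallest ratio between the on-DMBA replicates of any member, 1.39 (1.13 to 1.72). Per kb, Gins4 was the highest GINS subunit and Gins2 the lowest in all 4 libraries, with spans of 7.29, 12.3, 14.9 and 12.4-fold. Exons of Gins2 lie under the opposite-strand gene Gse1 over 67.3% of their length, so its level is uncertain. The log2 difference was -0.30 (SE 0.55) for Gins4 and -0.77 (SE 0.76) for Gins2, neither past limma's test (adjusted p = 0.9997 for each).

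**Figure D2:**
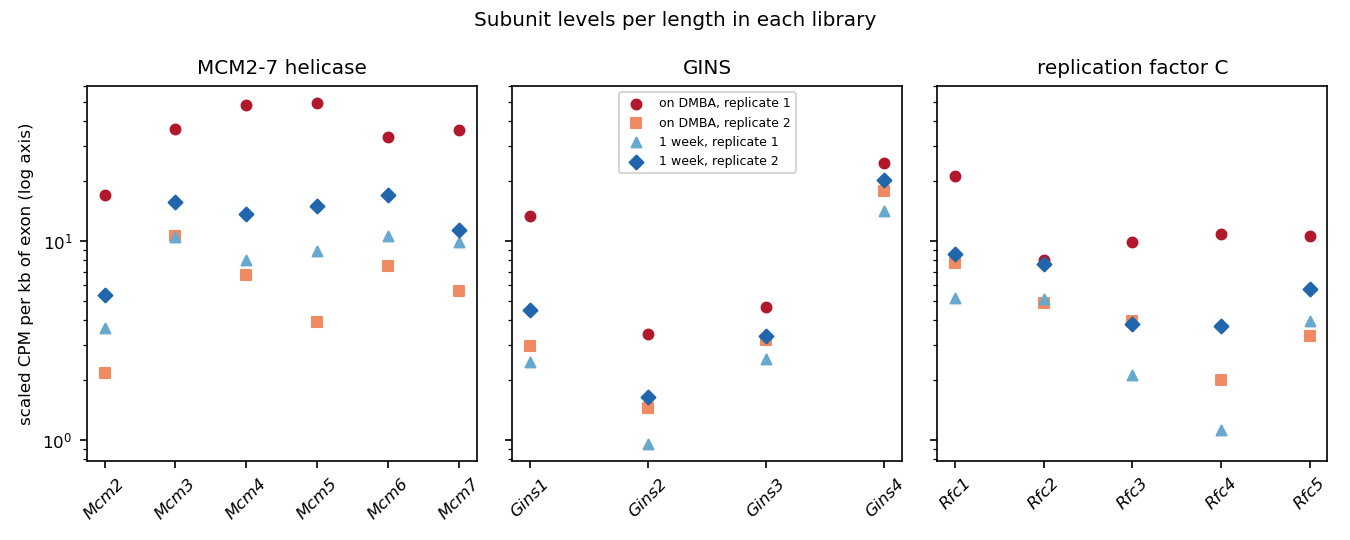
Level per kb of exon (scaled CPM per kb, log axis) of the subunits of MCM2-7, GINS and replication factor C, 1 point per library. Mcm2 is the lowest MCM2-7 subunit and Gins4 the highest GINS subunit in each of the 4 libraries.

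Polymerase and primase genes held 1 of the 2 members whose groups did not overlap. Both were lower at 1 week, where 9.14% of all genes were lower without overlap. Pola1, the catalytic subunit of polymerase alpha, which extends the primer, was at 158.5, 52.4, 20.0 and 49.8. Its on-DMBA replicate 2 and 1-week replicate 2 were close (292 and 349 reads), and the log2 difference of -1.51 (SE 0.79) did not pass limma's test (unadjusted p = 0.110, adjusted p = 0.9997). Pola2, its accessory subunit, had its 1-week values of 15.9 and 19.5 between the on-DMBA values of 25.6 and 9.69. Prim1, the catalytic primase subunit, was at 50.3, 7.0, 5.16 and 14.3, and Prim2, the large subunit, at 53.8, 16.2, 15.6 and 26.0. For both, 1-week replicate 1 was just below on-DMBA replicate 2. Pole, the leading-strand polymerase, was at 67.9, 6.64, 9.85 and 20.8, and Pold1, the catalytic subunit of the lagging-strand polymerase delta, at 38.6, 15.8, 21.4 and 23.7. These polymerases differed from each other between the on-DMBA replicates, by 10.2-fold for Pole (7.33 to 14.7) and 2.44-fold for Pold1 (1.93 to 3.13).

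The sliding clamp Pcna was at 211, 86.5, 81.0 and 148, the highest member per kb in every library (87.9, 36.0, 33.7 and 61.8). Its levels in the low libraries were within 1.83-fold of each other, and the annotation lists the pseudogenes Pcna-ps1 and Pcna-ps2, with which reads could be shared. Rfc3, a subunit of the clamp loader, was the other member without overlap, against 9.14% of all genes lower without overlap. It was at 35.6, 14.4, 7.66 and 13.8, where 14.4 and 13.8 differ by less than counting error. Its log2 difference was -1.10 (SE 0.73), that of Pcna -0.30 (SE 0.68), and neither passed limma's test (adjusted p = 0.9997 for each). Rfc1, the large subunit, was at 128, 46.7, 31.3 and 51.6. Rfc4 was at 16.6, 3.05, 1.72 and 5.71, and Rfc5 at 49.6, 15.6, 18.6 and 26.8. Rfc2 was the flattest of the loader genes, at 50.7, 30.9, 32.2 and 48.5. Per kb the 5 loader subunits spanned 2.64, 3.89, 4.63 and 2.30-fold, with Rfc1 the highest in each library.

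Single-strand binding genes and the genes that finish Okazaki fragments were likewise highest in on-DMBA replicate 1. Rpa1, the large subunit of the protein that coats single-stranded DNA, was at 139, 54.7, 39.7 and 87.0, and Rpa2 at 29.2, 10.9, 13.0 and 17.7. Fen1, the nuclease that trims Okazaki flaps, was at 95.8, 30.2, 36.1 and 48.5, but 84.2% of its exon length lies under opposite-strand genes. Lig1, the ligase that seals the nicks, was at 72.8, 9.15, 10.9 and 15.3. Its high value stood apart, since the other libraries lay within 1.67-fold of each other while on-DMBA replicate 1 was 4.77-fold above the next. The log2 differences were -0.57 (SE 0.71) for Rpa1, -0.36 (SE 0.71) for Fen1 and -0.99 (SE 1.06) for Lig1, and none passed limma's test (adjusted p = 0.9997 for each).

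Among the nucleotide supply genes, the subunits of ribonucleotide reductase, which makes deoxynucleotides, did not vary alike. Rrm2, the small subunit, which is made mainly in S phase, was at 149, 5.38, 22.3 and 32.5. Its 27.6-fold ratio between the on-DMBA replicates (19.3 to 41.1) was the largest of any member. Rrm1, the large subunit, was at 240.3, 51.0, 70.2 and 114. Per kb, Rrm2 stood above Rrm1 in 3 libraries (53.7 against 21.8, 8.07 against 6.37 and 11.7 against 10.4) and below it in on-DMBA replicate 2 (1.94 against 4.63). In scaled CPM Rrm1 was the higher in every library. The order per kb thus rests on the annotated exon lengths, 2771 bases for Rrm2 and 11012 for Rrm1. Tyms, which makes thymidylate and has a listed pseudogene, was at 66.0, 25.8, 36.4 and 38.5. The CAF-1 subunits, which deposit histones behind the fork, were at 77.5, 10.2, 16.9 and 27.2 for Chaf1a and at 37.3, 3.05, 7.50 and 11.1 for Chaf1b. They stayed within 1.10, 1.77, 1.19 and 1.29-fold of each other per kb, although 52.5% of the Chaf1a exons lies under the opposite-strand gene Ubxn6. The log2 difference was -0.31 (SE 0.86) for Rrm1 and -0.40 (SE 1.04) for Chaf1a, neither past limma's test (adjusted p = 0.9997 for each).

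The difference between the on-DMBA mice was larger than that between the 1-week mice for most members. On-DMBA replicate 1 exceeded replicate 2 by at least 2-fold in 34 members, at least 4-fold in 19 and at least 10-fold in 6 (Rrm2, Orc1, Mcm10, Mcm5, Chaf1b and Pole). Over all genes tested, 24.8% reached 2-fold and 9.62% reached 4-fold. The median ratio of the members was 4.17, and the 95% counting interval lay above 1 for each of the 37. Shares over all genes were not computed for 10-fold or for these intervals. At 1 week, replicate 2 exceeded replicate 1 in 35 of 37 members, the exceptions being Mcm10 and Cdt1, where 62.9% of all genes did so, and the median ratio was 1.51. On-DMBA replicate 1 exceeded 1-week replicate 2, the next highest library in sum, by 1.05-fold (Rfc2) to 5.93-fold (Orc1) with a median of 2.37. Across the 37 genes, as a description of libraries that share gene lengths and counting, log2 levels correlated with Pearson's r of 0.95 between the 1-week libraries and 0.73 between the on-DMBA libraries.

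**Figure D3:**
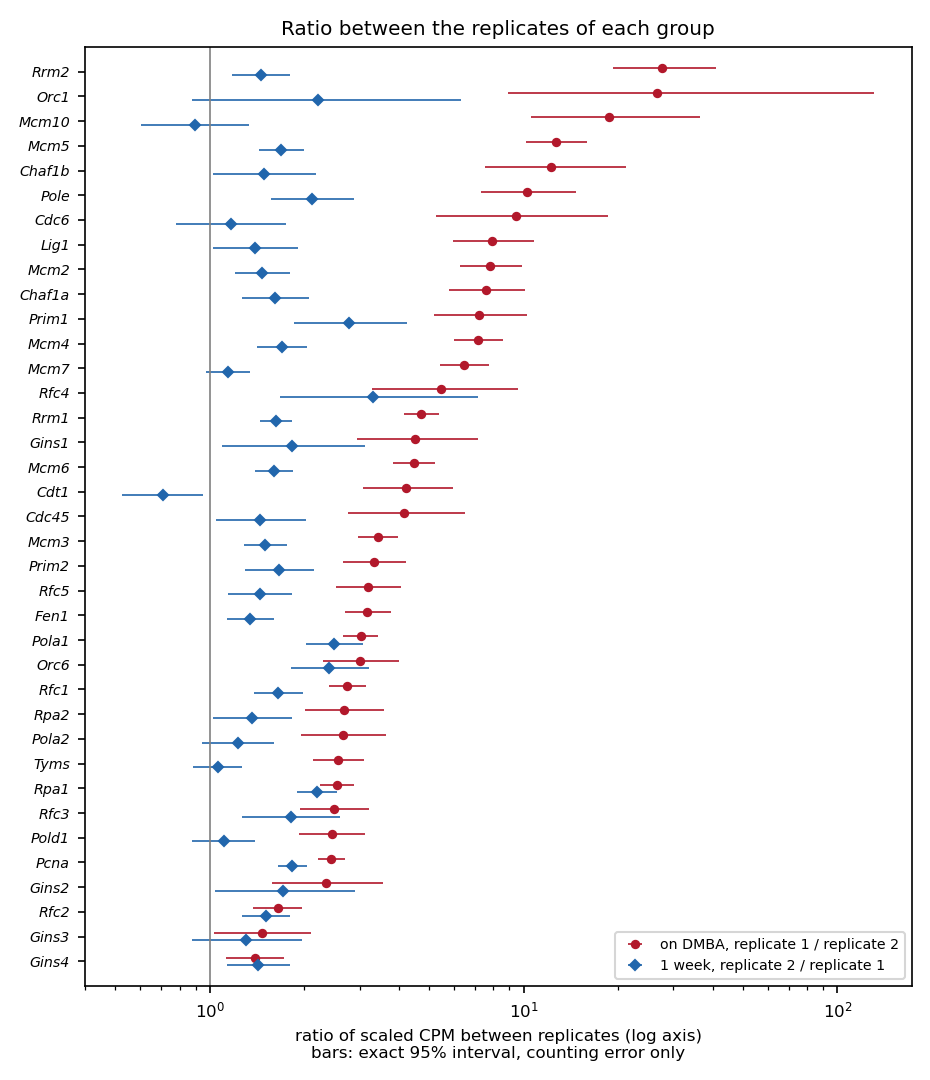
Ratio of scaled CPM between the replicates of each group for the 37 genes (log axis), with exact 95% intervals for counting error only. The on-DMBA ratios run from 1.39 (Gins4) to 27.6 (Rrm2), and the 1-week ratios have a median of 1.51.

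The comparison of 1 week without DMBA with continued DMBA asks whether replication gene levels differed once the carcinogen was stopped. With all 4 libraries limma called 0 members higher and 0 lower at 1 week, where it called 0% of all genes in each direction. At an unadjusted p under 0.05 there were also 0 and 0 members, against 352 higher and 30 lower genes over the whole table. On recovered reads edgeR called 0 and 0 members (0% of all genes in each direction, and 229 and 42 genes at an unadjusted p under 0.05). DESeq2 called 0 and 0 members, where it called 0.104% of all genes higher and 0.0195% lower (386 and 178 at an unadjusted p under 0.05). The median log2 difference of the members was -0.36 in limma, against -0.02 over all genes, with 34 members negative and 3 positive (Cdc45 0.23, Cdc6 0.18 and Pola2 0.15). With the columns rescaled to equal totals 30 members were negative and 7 positive, against 6573 and 8907 of all genes tested. The median log2 difference of the members was -0.79 in edgeR, against -0.05 over all genes. In DESeq2 it was -0.83, against -0.10. Groups did not overlap for 0 members higher at 1 week, against 14.0% of all genes, and for 2 members lower, Pola1 and Rfc3, against 9.14%. With standard errors of 0.55 to 1.53 across members, a 2-fold difference (1 on the log2 scale) was within 2 standard errors of 0 for every gene. These p-values measure the spread between 2 mice a group.

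The direction of the comparison turned on which on-DMBA library was kept. Both reduced comparisons share the 1-week libraries, and the single on-DMBA library left was taken to vary as the 1-week group does. Without on-DMBA replicate 1 the median log2 difference was 0.50, with 31 members positive, and 23 members were higher in both 1-week libraries, where 34.6% of all genes were, and 2 were lower, where 26.1% were. Limma then called 1 member higher, Rrm2, by 2.22 (SE 0.55, adjusted p = 0.00302), and 0 lower, where it called 2.35% and 0.999% of all genes. At an unadjusted p under 0.05 there were 6 members higher and 0 lower, against 883 and 465 of the 15419 genes.

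Without on-DMBA replicate 2 the median became -1.42, and all 37 members were lower in both 1-week libraries, where 43.8% of all genes were lower and 40.2% higher. Limma called 19 members lower and 0 higher, where it called 10.0% and 14.3% of all genes. The calls covered 5 of the 6 MCM2-7 genes (all but Mcm6), Gins1, Mcm10, Orc1, Pola1, Prim1, Prim2, Pole, Rfc1, Rfc3, Rfc4, Lig1, Rrm2, Chaf1a and Chaf1b. The smallest adjusted p-values from limma were 4.67e-05 for Lig1, 5.28e-05 for Prim1 and 6.57e-05 for Rrm2. Rrm2 was thus called lower by 2.44 against on-DMBA replicate 1 and higher by 2.22 against replicate 2. The library kept in the first of these comparisons had a basal keratinocyte marker sum 8.54-fold above that of 1-week replicate 1. The library kept in the second had a sum 9.69-fold below it. These sums were 49959 and 604, and that of 1-week replicate 2 was 4244. Whether the markers relate to the Rrm2 calls was not tested. Leaving out a 1-week library instead left limma's count at 0 and 0. The groups then did not overlap for 2 lower members without 1-week replicate 1 (17.2% of all genes) and for 14 without 1-week replicate 2 (31.2%).

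**Figure D4:**
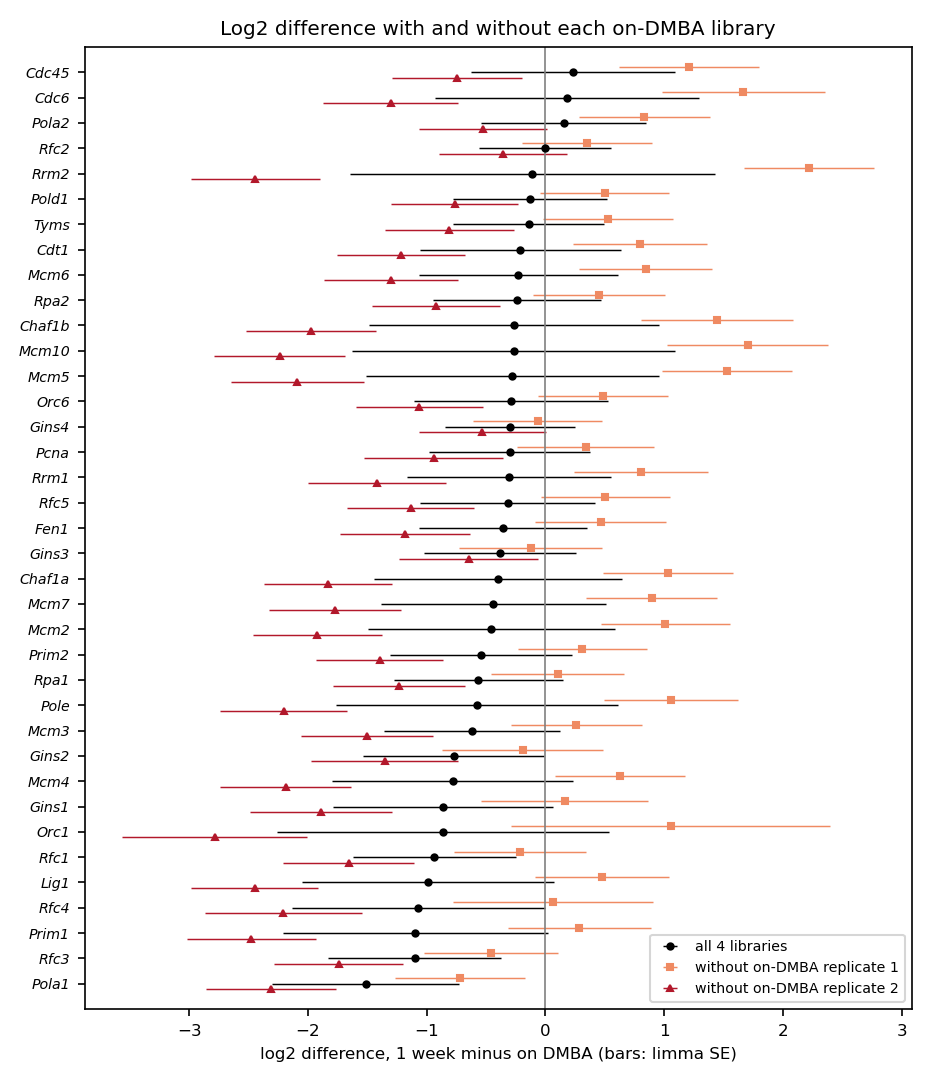
Log2 difference, 1 week minus on DMBA, of each member with all 4 libraries and without either on-DMBA library; bars are limma's standard errors. Without on-DMBA replicate 2 all 37 values lie below 0, and without on-DMBA replicate 1 31 lie above it.

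Of 46 other replication genes 0 were called in either direction by limma, edgeR or DESeq2, with a median of -0.44, and 40 were highest in on-DMBA replicate 1. Those with the highest mean levels were the maintenance methyltransferase Dnmt1 (326, 102, 107, 132), the topoisomerase Top1 (193, 91.9, 69.7, 122) and the clamp loader factor Chtf8 (170, 75.6, 106, 113). Gmnn, the inhibitor of CDT1, was at 45.1, 7.72, 6.25 and 13.5, and the salvage enzyme Tk1 at 78.3, 10.1, 18.3 and 24.2. Pold4, a small subunit of polymerase delta, ran against the members at 17.3, 31.4, 35.6 and 43.9. It was singled out after its values were seen.

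Of 25 regulators of S phase entry 0 were called by those tools, with a median of -0.34, and 21 were highest in on-DMBA replicate 1. E2f1, an activating E2F, had almost the same level in all 4 libraries (11.4, 10.6, 11.7 and 10.7), while E2f2 was at 18.3, 5.38, 7.03 and 7.27. The E-type cyclins, which start S phase, were at 22.8, 3.77, 8.91 and 8.27 for Ccne1 and at 16.1, 2.51, 3.44 and 9.41 for Ccne2. Of the D-type cyclins, which act in G1, Ccnd1 was at 671, 229, 109 and 204 and Ccnd2 at 185, 76.1, 35.9 and 60.9, both lower at 1 week without overlap. Ccnd3, added after its values were seen, was at 14.0, 15.6, 17.0 and 14.8. In all, 3 of the 25 regulators were lower without overlap, a share near the 9.14% of all genes. The log2 differences of Ccnd1 and Ccnd2, -1.39 (SE 0.76) and -1.33 (SE 0.65), did not pass limma's test (adjusted p = 0.9997 for each). Cdk4, the kinase of the D-type cyclins, was at 159.7, 62.8, 67.8 and 93.1.

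The 31 mitosis genes had a median of -0.71, 0 calls by those tools and their highest level in on-DMBA replicate 1 in all 31. Mki67, a marker of cycling cells, was at 572, 40.4, 53.3 and 88.0, the topoisomerase Top2a at 582, 74.7, 78.8 and 176, and the checkpoint gene Bub3 at 82.9, 60.1, 67.5 and 69.2. Summed, the replication genes stood at 0.857 of the mitosis genes in on-DMBA replicate 1 and at 1.48, 1.37 and 1.38 of them in the other libraries. Relative to Mki67 the members summed to 5.21 in on-DMBA replicate 1 and to 18.1, 15.5 and 14.7 elsewhere. Mitosis genes were therefore further raised in that library than the replication genes were. These ratios are between summed levels, with 1 value a library and no test.

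**Figure D5:**
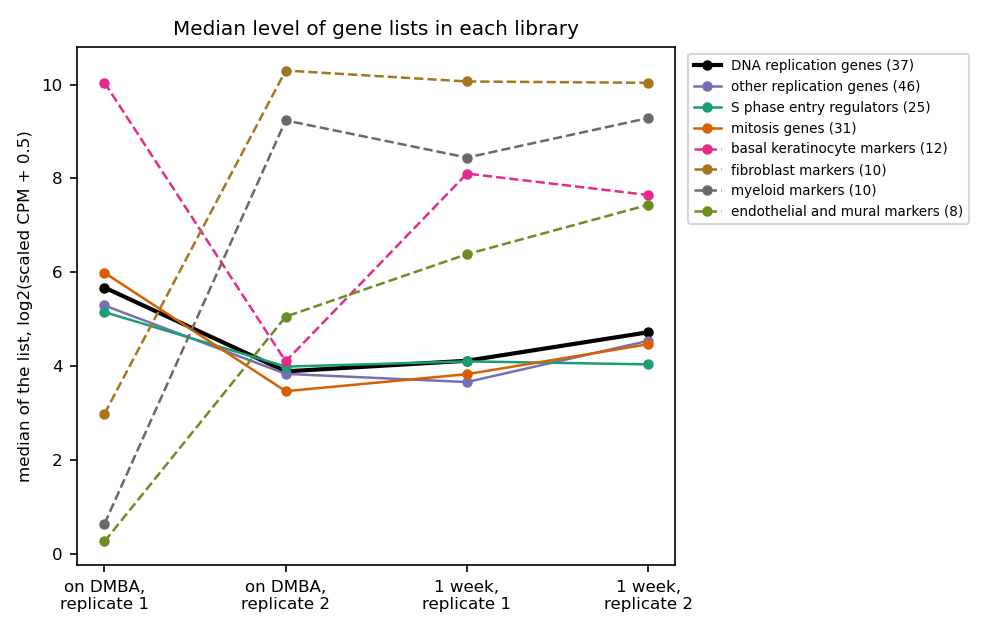
Median log2(scaled CPM + 0.5) of each gene list in each library; solid lines are replication and cell cycle lists, dashed lines are cell type marker lists, and lines join libraries only to guide the eye. The 4 replication and cell cycle lists and the basal keratinocyte markers are highest in on-DMBA replicate 1, the library in which the fibroblast, myeloid, and endothelial and mural markers are lowest.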

How the data were processed

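RNA from sorted keratoacanthoma cells of 4 mice was sequenced, 2 on DMBA and 2 others 1 week after it. The authors deposited 1 table of normalised signal, 1 value a gene and library, which they call CPM. Its columns differ in total, so the signal is a read count divided by a scaled library size and is called scaled CPM. Build mm9 and the tools TopHat2 2.1, edgeR 3.2.3, HTSeq and CASAVA 1.8.2 are listed in the submitters' processing notes, which state no role for them. The annotation and the strand setting of the counting were not given in the sources used here. Within each library 100% of the deposited values were whole multiples of 1 step (tolerance 0.01 reads), and reads were recovered from it. A floor of 3 reads is 0.356, 0.538, 0.469 and 0.428 scaled CPM.

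The 15419 genes reaching 1 scaled CPM in 2 or more libraries were tested two-sided with limma 3.58.1 in R 4.3.3. The values were log2(scaled CPM + 0.5), eBayes used a variance trend, and p-values were adjusted by Benjamini-Hochberg over all these genes, with 0.05 as the threshold. Differences on this scale understate the change of low genes. The members and the lists were chosen with earlier results of these data known. Levels are given for every member. Tests with all 4 libraries are given for 14 genes. They are the member with the highest mean and the member with the smallest p in each of 9 roles. Log2 differences or p-values of Rrm2, Prim1, Cdc45, Cdc6 and Pola2 were added because of their outcome. The context genes are the 3 with the highest mean of each list and 8 fixed genes, and the markers are the 2 highest of each list with Cdh3, Krt14 and Ptprc. Lengths came from GENCODE M21 (GRCm38), promoters from RefSeq (GRCm38.p6), neither being the mm9 build of the table. Ratio intervals are exact conditional binomial intervals on the recovered reads and cover counting error only. The alternatives were pseudocounts of 0.1 and 1, a filter of 5 and none, equal column totals, median ratio scaling, quantile normalization, eBayes without a trend or robust, a replicate block, leaving out each library, and DESeq2 1.42.0 or the quasi-likelihood test of edgeR 4.0.16 on recovered reads. The tests were also run on simulated reads. Those reads held no differences in cell composition between replicates, so they do not show how the tests behave on these libraries.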

Additional observations from a re-analysis of the deposited data

How the results depend on the processing

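The fits that left out 1 library moved most. Over them the number of genes called ran from 0 to 2212 higher and from 0 to 1549 lower, the members called from 0 to 1 higher and from 0 to 19 lower, and the members without overlap from 0 to 23 higher and from 2 to 37 lower. The median log2 difference of the members ran from -1.42 (without on-DMBA replicate 2) to 0.50 (without on-DMBA replicate 1), that of the other replication genes from -1.34 to 0.24, of the S phase entry regulators from -1.30 to 0.29 and of the mitosis genes from -2.08 to 0.71. Between these fits the log2 difference ran from -1.30 to 0.84 for Mcm6, from -1.50 to 0.26 for Mcm3, from -1.06 to 0.48 for Orc6, from -2.78 to 1.06 for Orc1, from -0.94 to 0.34 for Pcna, from -1.23 to 0.10 for Rpa1, from -1.19 to 0.47 for Fen1, from -2.45 to 0.48 for Lig1, from -1.42 to 0.81 for Rrm1 and from -1.83 to 1.03 for Chaf1a. The lowest value was without on-DMBA replicate 2 and the highest without on-DMBA replicate 1 for each of these lists and genes. With the same extremes, Pola1 (-2.31 to -0.72), Rfc3 (-1.74 to -0.46) and Gins2 (-1.35 to -0.19) stayed negative throughout. Gins4 also stayed negative, from -0.55 without 1-week replicate 2 to -0.05 without 1-week replicate 1. The cause was not tested. With a replicate block, 285 genes were called higher and 3 lower, none of them a member. The numbers mark different mice, and the correlation across genes of the same-numbered libraries' deviations was 0.015. DESeq2 called 16 genes higher and 3 lower. Quantile normalization gave 6 members lower without overlap, where 2687 of the 15419 genes were. The main fit had 2 members and 1410 genes, so the count rose for genes in general. Equal column totals moved the median of all genes from -0.02 to 0.11 and that of the members to -0.21, and quantile normalization moved them to -0.15 and -0.37. Of the other values computed under settings that kept all libraries, 282 kept their direction and side of the threshold and 5 moved, those being the block, DESeq2 and quantile counts given here. Orc1 was not tested at a filter of 5. Depth limits Orc1 most, with 3 reads in on-DMBA replicate 2.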
